A study of Mus musculus with 12 samples.

Results

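The 49 genes described here are the machinery of mitosis and DNA replication in the mouse heart. They were chosen by gene symbol from a written list, and all 49 were found among the 30199 genes of the deposited table. Gene expression had been measured by poly(A) RNA sequencing in 12 heart libraries of C57BL/6J mice, 3 in each of 4 groups. The groups were labelled ctrl (here control), plx3397, sorafenib and sorafenib_plx3397 (here both agents), and the hearts were sampled at the end of 28 days of sorafenib administration. Sorafenib is a multikinase inhibitor used against cancer. PLX3397 inhibits CSF1R, the receptor that tissue macrophages need, and the series' design text calls its agents macrophage clearance agents. No dose, route, sex or age is stated in the sources used here. The labels do not say whether each library came from a separate animal, so p-values measure only the spread between these samples.

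Dividing cells switch these genes on in order. Replication genes are transcribed around the entry into S phase, largely under E2F factors, and load the MCM helicase and supply the fork. Mitosis genes follow in G2, through complexes that hold MYBL2 (B-MYB) and FOXM1, and encode the kinases, spindle parts and ubiquitin ligase that separate the chromosomes. Adult cardiomyocytes rarely divide, and most cycling in an adult heart is known to occur in its other cells, such as macrophages, endothelial cells and fibroblasts.

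Each library held 61626404 to 64537365 counts, of which 29.2% to 33.6% fell on mitochondrial genes, and the 49 genes together took 7520 to 19414. As a check of the tissue, 8 cardiomyocyte markers summed to 28600 to 42200 CPM (counts scaled to a common library size, here by the trimmed mean of M values) in every library. The plx3397 libraries showed no called loss of macrophage markers, against what the agent's description says. The sum over 15 such markers was 267 to 292 CPM there against 267 to 323 CPM in the controls, and 0 of 15 were called in that comparison. For the division genes, plx3397 replicate 1 stood apart from the other two libraries of its group. Its median over the 49 genes lay 0.36 above the control mean on the log2 scale, against -0.18 and -0.27 in replicates 2 and 3. The counts of calls that changed most without that library are also given without it.

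The division genes were lower in the hearts given sorafenib, and with PLX3397 alone 0 of them were called. With the 6 libraries that had sorafenib set against the 6 that did not, averaged over the presence of PLX3397, 38 of the 49 genes fell and 1 rose. A gene is called here at an adjusted p under 0.05 in edgeR's quasi-likelihood test over 18897 genes. Of all genes tested, 6.32% were called lower and 5.62% higher in this comparison. These are 1195 lower and 1062 higher, a split that became 2617 and 343 with limma on log2(FPKM + 0.5). The median log2 fold change of the 49 genes was -1.24, against -0.01 over all genes tested, and 48 of the 49 lay below 0. In 28 of the 49 genes, every library with sorafenib lay below every library without it, a pattern that 2.42% of all genes showed. Whether fewer cells were dividing or each held less of these RNAs cannot be told apart in RNA of whole hearts.

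**Figure D1:**
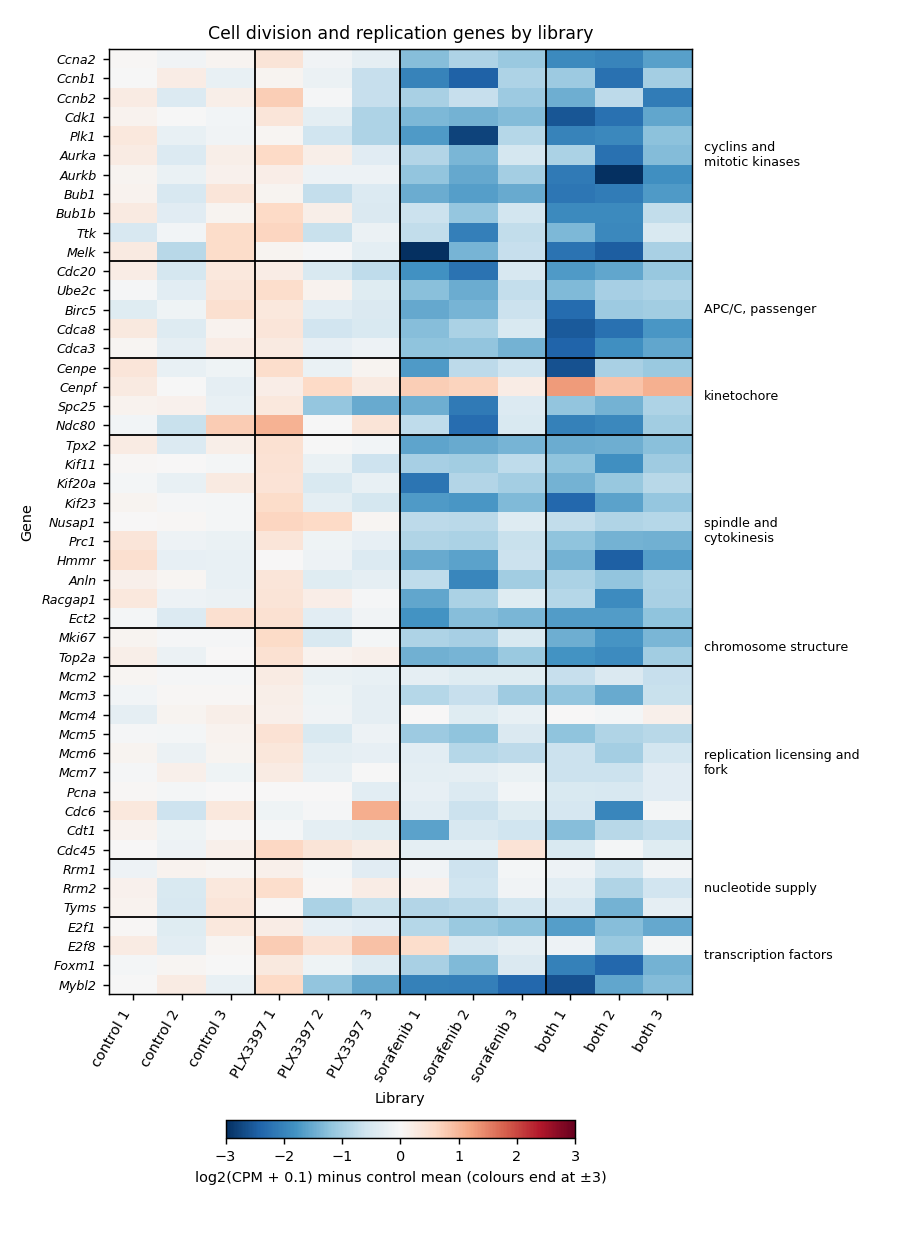
Each row is a gene and each column a library, coloured by the difference of log2(CPM + 0.1) from its average over the 3 controls and lines separating groups and roles. The sorafenib and both-agent columns are blue for most rows, with the mitosis genes darker than Mcm2, Mcm4, Mcm7 and Pcna, and Cenpf alone is red in all 6.

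These were low transcripts. Scaled for gene length, the mean over all libraries ran from 0.0906 FPKM (fragments scaled per kilobase of gene and for library size) for Ttk to 11.9 FPKM for Pcna, with a median of 0.452 FPKM, and 40 of the 49 genes were under 1 FPKM. After Pcna came Mcm7 at 2.16 FPKM, Mcm4 at 2.02 FPKM and Mcm6 at 1.97 FPKM. Among the mitosis genes, Cenpf at 1.09 FPKM and Cdc20 at 1.04 FPKM were the highest. The only count of 0 in the whole set was that of Melk in sorafenib replicate 1.

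The promoters of these genes were searched for 3 short motifs known to drive cell cycle transcription. As the 49 genes were chosen for their cell cycle roles, shares above those of all promoters reflect that choice and are no finding about sorafenib. Letters were matched on both strands within the 250 bases before each start, in RefSeq promoters of GRCm38.p6, which hold an entry for 43 of the 49 genes. The motifs were the cell cycle homology region, CHR (TTTGAA or TTCGAA), the CCAAT box (CCAAT) and the E2F site (TTTCGCGC, TTTGGCGC, TTTCCCGC or TTTGCCGC). They are printed for mitosis genes with a CHR (Cdk1, Cdc20, Ube2c, Top2a and Mki67), for MCM genes with E2F letters (Mcm5 and Mcm6) and for Cenpf, the 1 gene that rose. Each line gives the 150 bases before the start, read toward the gene, with the motif letters in capitals.
Cdk1, chr10:69352913-69353062, minus strand: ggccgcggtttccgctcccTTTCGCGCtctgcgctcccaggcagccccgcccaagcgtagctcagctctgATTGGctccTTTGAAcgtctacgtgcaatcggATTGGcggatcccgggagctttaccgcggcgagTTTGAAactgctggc
Cdc20, chr4:118437344-118437493, minus strand: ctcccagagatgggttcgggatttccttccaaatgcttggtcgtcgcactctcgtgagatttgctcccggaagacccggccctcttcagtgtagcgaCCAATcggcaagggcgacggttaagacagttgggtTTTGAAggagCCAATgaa
Ube2c, chr2:164769779-164769928, plus strand: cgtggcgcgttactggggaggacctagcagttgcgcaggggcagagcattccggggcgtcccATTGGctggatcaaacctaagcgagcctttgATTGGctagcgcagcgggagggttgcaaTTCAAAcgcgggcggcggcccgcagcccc
Top2a, chr11:99024190-99024339, minus strand: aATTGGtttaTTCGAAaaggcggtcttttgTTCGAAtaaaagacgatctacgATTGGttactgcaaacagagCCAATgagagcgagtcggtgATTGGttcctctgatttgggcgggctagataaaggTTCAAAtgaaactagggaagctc
Mki67, chr7:135716380-135716529, minus strand: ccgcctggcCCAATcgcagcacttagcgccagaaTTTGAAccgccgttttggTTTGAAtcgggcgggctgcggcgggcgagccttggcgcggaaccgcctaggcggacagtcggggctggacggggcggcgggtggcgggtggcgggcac
Mcm5, chr8:75109359-75109508, plus strand: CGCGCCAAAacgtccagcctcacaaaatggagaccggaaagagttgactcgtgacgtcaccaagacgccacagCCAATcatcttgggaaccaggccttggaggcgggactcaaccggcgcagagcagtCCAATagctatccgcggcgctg
Mcm6, chr1:128359706-128359855, minus strand: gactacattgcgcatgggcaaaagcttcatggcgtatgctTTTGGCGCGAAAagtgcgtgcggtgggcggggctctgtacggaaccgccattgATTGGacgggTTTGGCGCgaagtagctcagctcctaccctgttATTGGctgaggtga
Cenpf, chr1:189688087-189688236, minus strand: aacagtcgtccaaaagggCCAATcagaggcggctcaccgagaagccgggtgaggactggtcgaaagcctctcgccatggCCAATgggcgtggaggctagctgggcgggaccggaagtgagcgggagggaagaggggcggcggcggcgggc
Capitals that read TTTGAA or TTCGAA, or the reverse complement of the first, are a CHR. Those that read CCAAT or, on the other strand, ATTGG are a CCAAT box, and the longer runs rich in G and C are E2F letters. In Mcm6 a pair of E2F matches overlaps, and the leading capitals of Mcm5 hold the end of a match that begins before the stretch printed and overlaps the next. No other matches overlap in these stretches.

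A CCAAT box was present in 33 of the 43 genes (76.7%), against 33.8% of all 32851 promoters of the table. A gene with more than 1 entry counts if any entry holds the motif, whereas the shares of all promoters are over single entries. A CHR was present in 14 (32.6%), against 17.1%, and all 14 also held a CCAAT box, a pair present in 6.02% of all promoters. E2F letters were found in 5 (11.6%), against 1.86%. They lay in 4 of 12 replication and nucleotide genes and in 1 of 28 mitosis genes, Cdk1. Of the 14 genes with a CHR, 12 fell in the average sorafenib comparison with a median log2 fold change of -1.21, and of the 29 without one, 21 fell with a median of -1.32. Cenpf, which rose, has a pair of CCAAT letters in the stretch shown, as does Mcm5, which fell. These letter matches describe sequence only.

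Cyclins and mitotic kinases had the lowest median of the 8 roles, which are described here and were not tested against each other. In the average sorafenib comparison 9 of the 11 fell, and the median log2 fold change was -1.53. Ccna2 (cyclin A2, the partner of CDK2 and CDK1 through S phase and G2) stood at 5.96, 5.42 and 6.22 CPM in the controls and at 7.64, 5.48 and 4.86 CPM with plx3397. It stood at 2.37, 3.04 and 2.64 CPM with sorafenib and at 1.48, 1.40 and 1.84 CPM with both agents. Every library with sorafenib was thus below every one without, and the average log2 fold change was -1.53 ± 0.15 (SE, 6 against 6 libraries, adjusted p = 4.47e-05). Cdk1, the kinase that drives entry into mitosis, had 3.09, 2.85 and 2.70 CPM in the controls and 3.74, 2.31 and 1.47 CPM with plx3397. It had 1.07, 1.01 and 1.10 CPM with sorafenib and 0.405, 0.535 and 0.910 CPM with both agents. The sorafenib libraries lay close together, those with both agents were lower still, and neither reached the lowest plx3397 library. The average change was -1.73 ± 0.25 (adjusted p = 0.000781).

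Bub1, a checkpoint kinase at kinetochores, stood at 2.66, 1.74 and 3.22 CPM in the controls and at 2.61, 1.45 and 1.82 CPM with plx3397. It stood at 0.819, 0.720 and 0.799 CPM with sorafenib and at 0.472, 0.5 and 0.695 CPM with both agents. Groups with and without sorafenib did not overlap, and the average log2 fold change was -1.76 ± 0.23 (adjusted p = 0.000341). Aurkb, the kinase of the chromosomal passenger complex, had 2.28, 1.86 and 2.38 CPM in the controls and 2.51, 1.94 and 1.93 CPM with plx3397. It had 0.902, 0.686 and 1.02 CPM with sorafenib and 0.422, 0.0860 and 0.530 CPM with both agents, so that its lowest values were those of the combined group. Its average change was -1.96 ± 0.30 (adjusted p = 0.00125). Per length the most abundant gene of this group was Ccnb2 (cyclin B2), at 0.983 FPKM. It had 2.59, 1.60 and 2.45 CPM in the controls, 3.68, 2.11 and 1.30 CPM with plx3397, 1.05, 1.30 and 0.959 CPM with sorafenib and 0.725, 1.21 and 0.430 CPM with both agents. Here sorafenib replicate 2 equalled plx3397 replicate 3, while the average change was -1.29 ± 0.29 (adjusted p = 0.0115). Ccnb1, Plk1, Aurka and Bub1b also fell, with log2 fold changes of -1.23 to -1.55. The kinases Melk (-1.99 ± 0.62, adjusted p = 0.0520) and Ttk (-1.40 ± 0.47, adjusted p = 0.0662) had changes of similar size with larger errors and were not called.

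Genes grouped under the anaphase-promoting complex and the chromosomal passenger complex, with Cdca3 placed beside them, fell in 5 of 5 cases, with a median of -1.33. Cdc20, the activator of that ubiquitin ligase, stood at 3.74, 2.19 and 4.05 CPM in the controls and at 3.75, 2.32 and 1.86 CPM with plx3397. It stood at 0.835, 0.617 and 2.29 CPM with sorafenib and at 0.928, 1.02 and 1.41 CPM with both agents. Sorafenib replicate 3 therefore overlapped the controls, and the average log2 fold change was -1.33 ± 0.31 (adjusted p = 0.0144). Cdca3, a mitotic entry factor, had 2.22, 1.74 and 2.49 CPM in the controls and 2.57, 1.79 and 1.89 CPM with plx3397, against 0.869, 0.874 and 0.735 CPM with sorafenib and 0.320, 0.518 and 0.662 CPM with both agents. No library with sorafenib came near one without it, and the change was -1.72 ± 0.22 (adjusted p = 0.000331). Cdca8 (borealin) fell by 1.56, Birc5 (survivin) by 1.32 and Ube2c, the E2 enzyme of the anaphase-promoting complex, by 1.24 on the log2 scale.

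The kinetochore genes held the 1 exception. Cenpe, a kinetochore motor, fell by 1.37 and Ndc80, which grips microtubule ends, fell by 1.84 on the log2 scale, whereas Spc25 of the same complex had -1.02 ± 0.40 (adjusted p = 0.114). Cenpf, a large kinetochore protein that also binds microtubules outside mitosis, went up. Its levels were 15.3, 12.5 and 10.4 CPM in the controls, 14.4, 19.0 and 15.2 CPM with plx3397, 21.2, 20.0 and 14.7 CPM with sorafenib and 30.7, 22.8 and 26.4 CPM with both agents. The libraries with both agents lay above all 9 others, while sorafenib and plx3397 overlapped each other and the controls. Cenpf rose on average by 0.63 ± 0.12 on the log2 scale (adjusted p = 0.00487), and it rose with both agents against control by 1.07 ± 0.17 (adjusted p = 0.00178). Against control, sorafenib alone gave 0.55 ± 0.17 (adjusted p = 0.0910), which was not called, and plx3397 alone gave 0.35 ± 0.17 (adjusted p = 0.424). The average rise was called in all 20 alternative settings, at 0.35 to 0.72.

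**Figure D2:**
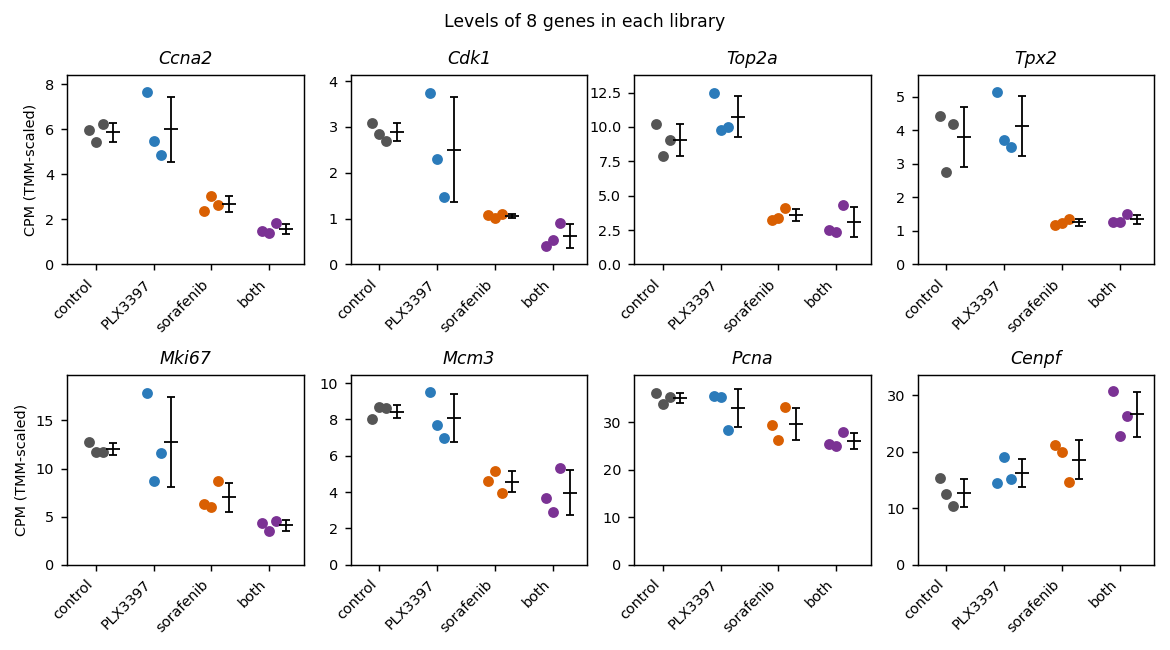
Points are single libraries in CPM for 8 genes, with the group mean ± SD (n = 3) beside them and axes that start at 0. Ccna2, Cdk1, Top2a and Tpx2 fall apart into libraries with and without sorafenib, Pcna moves little, and Cenpf is highest with both agents at 22.8 to 30.7 CPM.

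All 10 spindle and cytokinesis genes fell, with changes of -1.02 to -1.70 and a median of -1.19. Tpx2, which nucleates spindle microtubules and activates Aurora A, stood at 4.43, 2.77 and 4.19 CPM in the controls and at 5.15, 3.71 and 3.51 CPM with plx3397. It stood at 1.17, 1.23 and 1.36 CPM with sorafenib and at 1.26, 1.28 and 1.51 CPM with both agents. The 6 libraries with sorafenib spanned a narrow range below every other library, and the change was -1.60 ± 0.17 (adjusted p = 9.26e-05). Ect2, the exchange factor that starts the cleavage furrow, had 2.02, 1.55 and 2.95 CPM in the controls and 2.90, 1.68 and 1.93 CPM with plx3397, against 0.535, 0.806 and 0.751 CPM with sorafenib and 0.590, 0.587 and 0.860 CPM with both agents. It too separated without overlap (-1.66 ± 0.24, adjusted p = 0.000727).

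Kif23, a motor of the central spindle, had 3.06, 2.83 and 2.79 CPM in the controls and 4.31, 2.34 and 1.99 CPM with plx3397. It had 0.819, 0.789 and 1.10 CPM with sorafenib and 0.489, 0.880 and 1.24 CPM with both agents, a change of -1.70 ± 0.25 (adjusted p = 0.000910) with no overlap. Prc1, which bundles the antiparallel microtubules of the midzone, had 4.78, 3.28 and 3.19 CPM in the controls, 4.76, 3.34 and 3.10 CPM with plx3397, 1.91, 1.87 and 2.27 CPM with sorafenib and 1.55, 1.31 and 1.29 CPM with both agents. All libraries with both agents were below all with sorafenib alone, and the average change was -1.16 ± 0.17 (adjusted p = 0.000824). Kif20a, another midzone motor and per length the most abundant gene of this group (0.574 FPKM), had 3.67, 3.25 and 4.60 CPM in the controls and 5.06, 2.74 and 3.27 CPM with plx3397. Its values were 0.752, 2.02 and 1.81 CPM with sorafenib and 1.37, 1.67 and 2.10 CPM with both agents. They did not overlap those without sorafenib, and the change was -1.22 ± 0.24 (adjusted p = 0.00568).

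Mki67 encodes the Ki-67 protein that coats mitotic chromosomes and serves as the usual stain for cycling cells, and Top2a encodes the topoisomerase that untangles them. Top2a stood at 10.2, 7.91 and 9.07 CPM in the controls and at 12.5, 9.76 and 10 CPM with plx3397. It stood at 3.26, 3.38 and 4.08 CPM with sorafenib and at 2.53, 2.36 and 4.32 CPM with both agents. Every library with sorafenib held far less than every one without (-1.58 ± 0.15, adjusted p = 4.47e-05). Mki67 had 12.8, 11.7 and 11.7 CPM in the controls, 17.9, 8.72 and 11.6 CPM with plx3397, 6.32, 6.02 and 8.74 CPM with sorafenib and 4.30, 3.48 and 4.57 CPM with both agents. All libraries with both agents were lower than all with sorafenib alone, of which replicate 3 just passed the lowest plx3397 library. The average change was -1.20 ± 0.16 (adjusted p = 0.000450). The sorafenib mean of Mki67 was 58.2% of the control mean, and the mean with both agents was 32.4% of the plx3397 mean.

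Replication genes had smaller changes. Of the 10 licensing and fork genes 7 fell, with a median of -0.56, and of the 3 nucleotide supply genes 0 were called, with a median of -0.51. Summed over each role, the licensing and fork genes stood at 76.3% of control with sorafenib, whereas cyclins and kinases stood at 41.0% and spindle and cytokinesis genes at 44.3%. Pcna, the sliding clamp of the polymerases, had 36.1, 33.9 and 35.2 CPM in the controls, 35.5, 35.2 and 28.3 CPM with plx3397, 29.4, 26.3 and 33.1 CPM with sorafenib and 25.4, 24.9 and 27.9 CPM with both agents. The sorafenib libraries overlapped those of plx3397, and the change, -0.29 ± 0.07 (adjusted p = 0.0215), was small. The call was lost without plx3397 replicate 1, and also when replicate 1 or 2 of both agents was left out. Rrm1, the large subunit of ribonucleotide reductase, had 15.3, 18.5 and 17.7 CPM in the controls, 19.1, 16.4 and 13.5 CPM with plx3397, 16.0, 11.1 and 16.3 CPM with sorafenib and 15.5, 11.6 and 15.9 CPM with both agents. These groups overlapped (-0.22 ± 0.12, adjusted p = 0.262). Rrm2, the S-phase subunit of the same enzyme, had -0.54 ± 0.19 (adjusted p = 0.0758), and Tyms, thymidylate synthase, had -0.51 ± 0.25 (adjusted p = 0.200).

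The 6 subunits of the MCM2-7 helicase, which act as 1 ring, had changes of unequal size. Mcm3 stood at 8.01, 8.69 and 8.60 CPM in the controls and at 9.52, 7.68 and 6.97 CPM with plx3397. It stood at 4.63, 5.14 and 3.96 CPM with sorafenib and at 3.68, 2.88 and 5.31 CPM with both agents, all below every library without sorafenib. It fell by 0.95 (SE 0.14, adjusted p = 0.00104) on the log2 scale, Mcm5 by 0.93, Mcm6 by 0.67, Mcm2 by 0.44 and Mcm7 by 0.42. Mcm4 had -0.05 ± 0.11 (adjusted p = 0.810), with 8.24 ± 1.30 CPM (SD, n = 3) for control, 7.83 ± 1.21 CPM for plx3397, 7.17 ± 0.969 CPM for sorafenib and 8.34 ± 0.626 CPM for both agents. The ratio of Mcm3 to Mcm4 in CPM was 0.928 to 1.18 over the libraries without sorafenib and 0.369 to 0.815 over those with it. For Mcm7 that ratio was 1.15 to 1.73 without sorafenib and 0.911 to 1.53 with it, so that these overlapped. The ratios are a description with no test, and Mcm4 was singled out after its value was seen. Cops6, a gene with more counts, overlaps Mcm7 on the opposite strand, as given below. The call of Mcm2 was lost without plx3397 replicate 1. Among the loading factors and the helicase activator, Cdt1 fell by 0.79 on the log2 scale, a call that was lost without control replicate 3, plx3397 replicate 1 or replicate 1 of both agents, whereas Cdc6 (-0.88 ± 0.38, adjusted p = 0.155) and Cdc45 (-0.38 ± 0.17, adjusted p = 0.161) were not called.

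Of the 4 transcription factors that act on these genes, 3 fell. E2f1, an activator of S-phase genes and per length the highest of the 4 (0.372 FPKM), had 1.92, 1.43 and 2.35 CPM in the controls and 2.18, 1.55 and 1.45 CPM with plx3397. It had 0.986, 0.806 and 0.735 CPM with sorafenib and 0.523, 0.707 and 0.579 CPM with both agents, with no overlap (-1.34 ± 0.21, adjusted p = 0.00142). Foxm1, the forkhead activator of G2 genes, fell by 1.48 and Mybl2 by 1.99. E2f8, an atypical E2F that represses, had -0.58 ± 0.26 (adjusted p = 0.161).

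For sorafenib against control alone, 14 of the 49 genes fell and 0 rose, where 1.14% of all genes were called lower and 1.5% higher. Over all genes, 216 were lower and 284 higher, a split that became 758 lower and 96 higher with limma on log2(FPKM + 0.5). The median of the 49 genes was -1.0, against -0.02 over all genes, and 39 of the 49 had all 3 sorafenib libraries below all 3 controls, as did 13.7% of all genes. The smallest adjusted p-values were those of Tpx2 (-1.60 ± 0.24, adjusted p = 0.00774), Top2a (-1.34 ± 0.21, adjusted p = 0.00913) and Ccna2 (-1.13 ± 0.20, adjusted p = 0.0154). Bub1, Ect2, Kif23, Cdca3, Mcm3, Mybl2, Cdk1, Anln, Ccnb1, Ube2c and E2f1 made up the rest. Mybl2 had the largest change, -2.46 ± 0.57 (adjusted p = 0.0393), and E2f1 lay at the threshold. How many genes were called depended on single libraries. The count was 0 without sorafenib replicate 1, 2 without control replicate 3, 3 without sorafenib replicate 2 and 5 without control replicate 2. It was 8 without plx3397 replicate 2, 9 when replicate 1 of both agents was left out and 21 without plx3397 replicate 1. The median stayed between -1.21 and -0.93 in all 12 of these fits.

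PLX3397 alone gave 0 calls among the 49 genes and among all genes (0% lower). At an unadjusted p under 0.05 in edgeR there were 0 of the 49, beside 2325 of all 18897 genes in either direction. DESeq2 and limma also called 0 of the 49. Over all genes the count was 100 with the Wald test of DESeq2, 2 with limma and 578 in edgeR without plx3397 replicate 1, a fit that still called 0 of the 49. The median of the 49 genes was -0.04, with a range of -0.61 to 0.72 and a smallest adjusted p of 0.424, that of Cenpf. Without plx3397 replicate 1 the median was -0.24. The spread within the plx3397 group was wide for some of these genes, with 2.5 ± 1.15 CPM (SD, n = 3) for Cdk1 and 1.31 ± 1.20 CPM for Mybl2.

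Against plx3397, both agents lowered 25 of the 49 genes and raised 1, Cenpf (0.72 ± 0.17, adjusted p = 0.0346), where 2.23% of all genes were called lower and 1.01% higher. Over all genes these are 421 lower and 190 higher, against 545 and 74 with limma on log2(FPKM + 0.5). The median was -1.37. In 41 of the 49 genes all libraries with both agents lay below all with plx3397, as in 11.5% of all genes. Largest among the called were Aurkb (-2.61 ± 0.44, adjusted p = 0.00613), Ndc80 (-2.45 ± 0.59, adjusted p = 0.0356) and Cdca8 (-2.20 ± 0.38, adjusted p = 0.00706). Foxm1 had -2.05 ± 0.36 (adjusted p = 0.00801). The call of Ndc80 was lost without any 1 of the 3 plx3397 libraries, without replicate 1 or 2 of both agents, and with limma on log2(FPKM + 0.5). The number called, 26 in all, was 12 without plx3397 replicate 1. With replicate 1 or 2 of the group with both agents left out it was 10 or 16. The rise of Cenpf was not called without control replicate 2, plx3397 replicates 1 or 3, or replicates 1 or 3 of both agents, nor with limma on FPKM at either pseudocount.

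**Figure D3:**
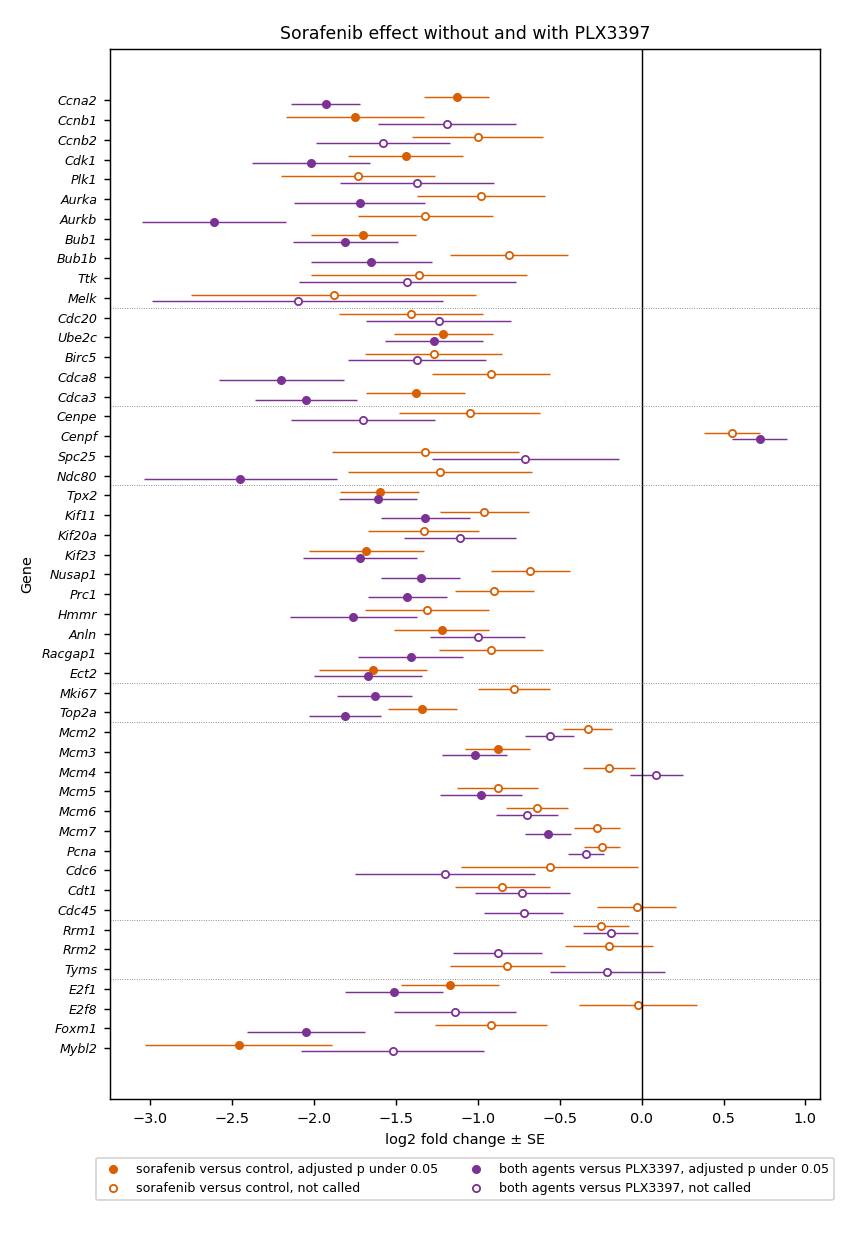
Log2 fold change ± SE for each of the 49 genes, for sorafenib against control (orange) and both agents against plx3397 (purple), filled where the adjusted p was under 0.05. Both sets lie left of 0 for nearly all genes, and Cenpf lies right of 0 in both. By median the replication and nucleotide roles lie nearer 0 than the mitosis roles, though single genes overlap.

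Against control, both agents lowered 38 of the 49 genes and raised Cenpf, where 8.14% of all genes were called lower and 7.97% higher, and the median was -1.46. Over all genes the split of 1539 lower and 1507 higher became 2862 and 515 with limma on log2(FPKM + 0.5). This comparison shares its controls with that of sorafenib alone. Aurkb reached 15.9%, Cdca8 19.0% and Cdk1 21.4% of the control mean. The 39 calls became 20 without replicate 1 of both agents, 23 without replicate 2 and 24 without control replicate 3.

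Adding PLX3397 to sorafenib gave 0 calls among the 49 genes in edgeR, DESeq2 and limma (0% of all genes were called lower in edgeR). Over all genes the Wald test of DESeq2 called 37 lower and 28 higher. At an unadjusted p under 0.05, 8 of the 49 were lower and 1 higher in edgeR, beside 1216 of all 18897 genes in either direction. The median was -0.26, against 0.00 over all genes, and 40 of the 49 lay below 0. In 13 of the 49 every library with both agents was below every sorafenib library, as in 6.21% of all genes. These were Ccna2, Cdk1, Aurkb, Bub1, Cdca3, Cdca8, Kif11, Prc1, Mki67, Mcm2, Mcm7, E2f1 and Foxm1. The largest differences were those of Cdca8 (-1.47 ± 0.38, adjusted p = 0.435), Aurkb (-1.32 ± 0.44, adjusted p = 0.622) and Foxm1 (-1.18 ± 0.36, adjusted p = 0.585). Whether sorafenib acted differently with PLX3397 present was tested as an interaction. It also gave 0 calls among the 49 in the 3 tools (0% of all genes lower in edgeR). Over all genes the Wald test of DESeq2 called 5. The smallest adjusted p among the 49 in edgeR was 0.822, and their median was -0.23. In edgeR 6 of the 49 were lower and 0 higher at an unadjusted p under 0.05, beside 1099 of all 18897 genes in either direction. The interaction median was -0.07 without plx3397 replicate 1.

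Other genes of the cell cycle were taken from lists that exclude the 49. Of 70 further mitosis genes, 36 fell and 0 rose in the average sorafenib comparison, with a median of -1.02. Of all genes, 6.32% were called lower and 5.62% higher there. Pbk, a mitotic kinase, fell by 2.13, Nuf2, a partner of NDC80, by 1.89, Espl1 (separase) by 1.81 and Aspm, a spindle pole protein, by 1.20 on the log2 scale. Of 45 further replication genes 16 fell and 0 rose in the same comparison, beside the same shares of all genes, with a median of -0.34. Among them were Uhrf1, which maintains DNA methylation behind the fork (-1.57 ± 0.22, adjusted p = 0.000656), Brca1 (-1.53 ± 0.31, adjusted p = 0.00710), Clspn (-1.39 ± 0.30, adjusted p = 0.0101) and Mcm10 (-1.35 ± 0.30, adjusted p = 0.0108). With sorafenib against control alone, 6 of the 70 (Pbk, Nuf2, Cep55, Nek2, Trip13 and Aspm) and 1 of the 45 (Uhrf1) fell, beside 1.14% of all genes. The further mitosis genes thus had a lower median than the further replication genes, in the same order as among the 49.

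**Figure D4:**
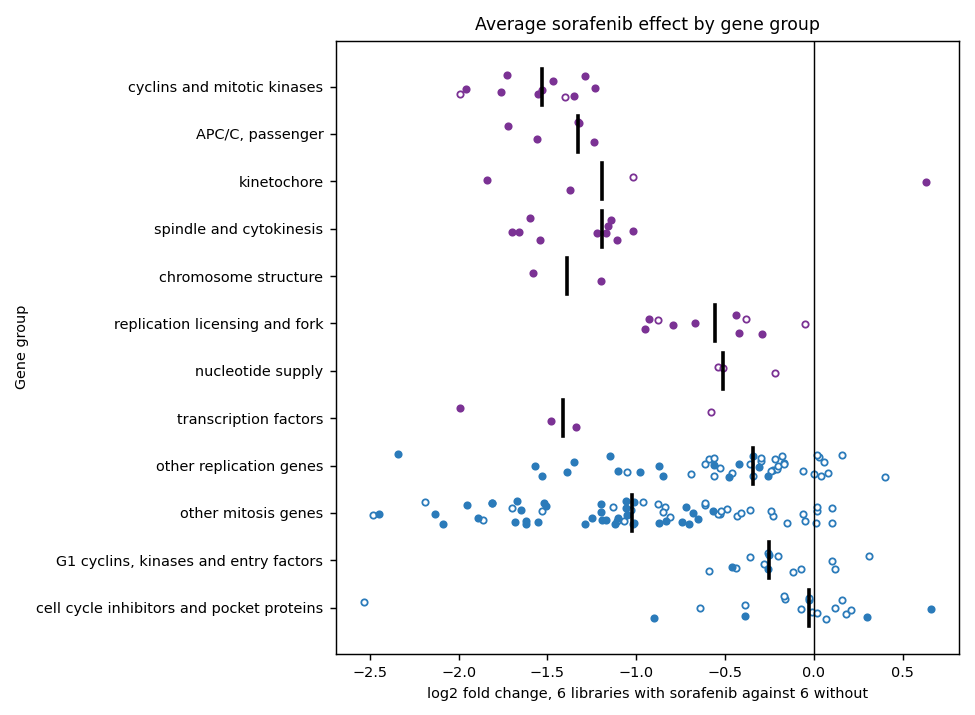
Each point is a gene, placed by its log2 fold change for the 6 libraries with sorafenib against the 6 without and filled where called. Purple groups are the 49 genes by role, blue groups are further cell cycle genes, and black bars mark medians, which lie at -1.53 for cyclins and kinases, -1.02 for other mitosis genes and -0.34 for other replication genes.

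Genes of the entry into the cycle and its brakes had medians nearer 0. Of 14 cyclins, kinases and entry factors of G1, 3 fell in the average comparison (6.32% of all genes did) with a median of -0.26 over the list, namely Cdk4 (-0.26 ± 0.06, adjusted p = 0.0159), Ccnd1 (-0.46 ± 0.11, adjusted p = 0.0174) and Ccnd3 (-0.25 ± 0.06, adjusted p = 0.0181). Ccnd1, cyclin D1, had 38.3, 39.7 and 51.4 CPM in the controls, 48.5, 42.6 and 47.8 CPM with plx3397, 27.1, 42.5 and 30.0 CPM with sorafenib and 35.8, 30.0 and 29.1 CPM with both agents. Sorafenib replicate 2 lay within the range of the controls. Ccnd2, cyclin D2, had 0.31 ± 0.10 (adjusted p = 0.0711) on average and rose with both agents against control by 0.45 ± 0.15 (adjusted p = 0.0494).

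Of 19 inhibitors and pocket proteins, 2 fell and 2 rose, with a median of -0.03, beside 6.32% of all genes lower and 5.62% higher. Cdkn1a, the p53-responsive inhibitor p21, had 22.9, 27.7 and 33.9 CPM in the controls and 17, 16.1 and 18.8 CPM with plx3397. It had 16.5, 9.05 and 16.9 CPM with sorafenib and 7.08, 11.5 and 11.2 CPM with both agents. Its values in the controls lay above those of all other libraries, and it fell on average by 0.90 (SE 0.17, adjusted p = 0.00646). Plx3397 against control gave -0.70 ± 0.24 (adjusted p = 0.361) for it. Cdkn1c, the inhibitor p57, fell by 0.39 (SE 0.08, adjusted p = 0.00533). Wee1, the kinase that holds CDK1 inactive, rose by 0.66 ± 0.15 (adjusted p = 0.0116), with 7.32 to 10.7 CPM in the controls, 8.26 to 8.84 CPM with plx3397, 9.45 to 12 CPM with sorafenib and 11.1 to 21.9 CPM with both agents. The rise was called with both agents against plx3397 (1.02 ± 0.21, adjusted p = 0.0181) and was not with sorafenib against control (0.30 ± 0.21, adjusted p = 0.431). Rbl2, the pocket protein p130 of resting cells, rose by 0.30 ± 0.08 (adjusted p = 0.0320).

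Macrophage markers moved with the division genes. In the average sorafenib comparison 14 of 15 fell, where 6.32% of all genes were called lower, and Mertk, at 0.08, was not called. Their sum was 267 to 323 CPM in the controls, 267 to 292 CPM with plx3397, 121 to 194 CPM with sorafenib and 87.0 to 111 CPM with both agents. None of these markers was at 0 in a whole group, and Aif1 was at 0 in 1 library with both agents. The 48 division genes without Cenpf summed to 210 to 233 CPM in the controls, 190 to 277 CPM with plx3397, 123 to 157 CPM with sorafenib and 107 to 136 CPM with both agents. Within the groups, too, the libraries highest in one sum were high in the other. These are ranks of only 3 libraries per group, some of them close, and were not tested. Sorafenib replicate 3 had both the most macrophage marker RNA (194 CPM) and the most division gene RNA (157 CPM) of its group, plx3397 replicate 1 had 292 and 277 CPM, and replicate 3 of both agents had 111 and 136 CPM. Control replicate 2 had the least of both, 267 and 210 CPM. In the group with both agents the lowest library was replicate 1 for the markers and replicate 2 for the division genes. Outside that group, these ranks were not particular to macrophage markers. Of the controls, replicate 2 was also lowest in the sums of lymphocyte markers and of neutrophil and monocyte markers. Both sums were highest in replicate 1 of plx3397 and in replicate 3 of sorafenib. With both agents, replicate 3 was instead lowest for neutrophil and monocyte markers, and replicate 2 was highest for lymphocyte markers. The part of macrophages, or of these other cells, in the fall of the division genes was not tested.

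**Figure D5:**
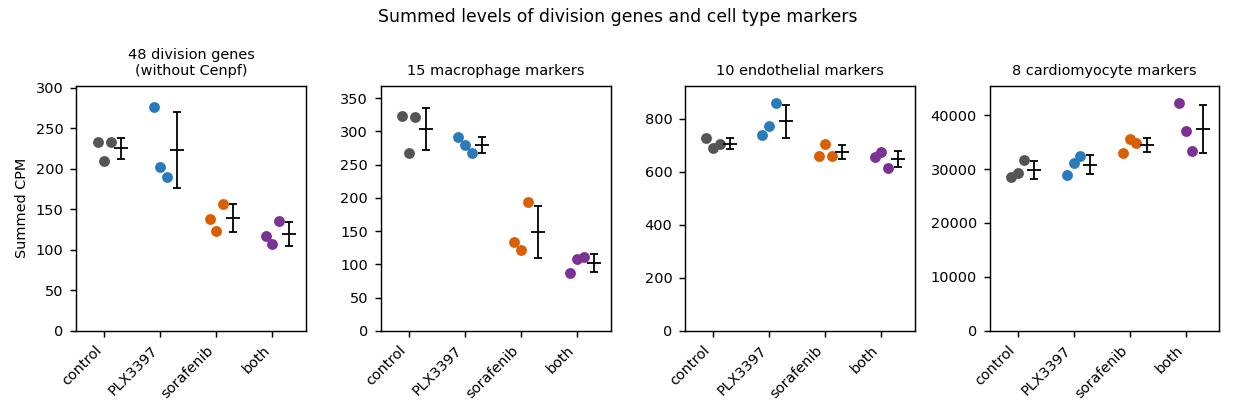
Summed CPM per library (points) and group mean ± SD (n = 3) for the division genes without Cenpf and for markers of 3 cell types, on axes that start at 0. Division genes and macrophage markers are both lower in the libraries with sorafenib, at 107 to 157 CPM and 87.0 to 194 CPM, while endothelial and cardiomyocyte sums change less.

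Markers of other cell types gave fewer calls than macrophage markers in the average comparison, where 6.32% of all genes were called lower and 5.62% higher. Of 10 endothelial markers 4 fell (Kdr, Emcn, Cldn5 and Egfl7) and Erg rose, with sums of 689 to 728 CPM in the controls, 738 to 861 CPM with plx3397, 660 to 705 CPM with sorafenib and 615 to 674 CPM with both agents. With both agents the mean sum was 82.1% of that with plx3397, without overlap. In that comparison 5 of the 10 fell, where 2.23% of all genes were called lower. Of 8 cardiomyocyte markers 4 rose, and of 7 erythroid markers 4 rose. Of 8 fibroblast markers Col3a1 fell, and 0 markers of lymphocytes, neutrophils and monocytes, adipocytes or the atria were called in the average comparison. The atrial and conduction markers were nevertheless uneven between libraries. They summed to 679 to 1430 CPM in the controls, 269 to 452 CPM with plx3397 and 266 to 416 CPM with both agents. With sorafenib they summed to 2200, 316 and 255 CPM in replicates 1, 2 and 3. The part of any of these cell types, or of uneven atrial content, in the division gene results was not tested.

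Some of the 49 genes share their position or sequence with others. A gene on the opposite strand overlaps 14 of them, and 4 have a named pseudogene (Ccnb1, Ccnb2, Pcna and Tyms), so that their counts are uncertain where reads could be split. The kit marks strand, but no source used here says whether counting used it. Most partners with enough counts to be tested had average sorafenib changes near 0, such as Exosc9 at Ccna2 (0.06), Elovl1 at Cdc20 (-0.04) and Cdc23 at Kif20a (0.03), while Oip5 at Nusap1, itself a mitosis gene, had -0.81. Some partners held far more counts than the member. Cops6 at Mcm7 (-0.10) had a mean of 6260 counts per library, against 431 to 929 for Mcm7. Ufd1 at Cdc45 (0.09) had a mean of 2240, against 115 to 279 for Cdc45. Whether reads of such partners entered the members' counts was not tested. The antisense gene at Cenpf, Gm37239, held a mean of 0.917 counts per library.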

How the data were processed

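Groups were taken from the sample titles. Per the labels' protocols, RNA was isolated with Trizol, poly(A)-selected and made into libraries with a dUTP-labelled second strand. The table deposited by the authors gave, per the file headers, an estimated count and an FPKM per gene and library; the counts were whole numbers. Low values piled up at multiples of 4 (12143 values of 4, against 5303 of 3 and 3364 of 5), and whether they count single fragments is unknown. Per the submitters' processing notes, mm10, DESeq2 and edgeR were used; no aligner or counter is named in the sources used here. Symbols and coordinates are as deposited.

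The test was run on these counts with edgeR 4.0.16 in R 4.3.3 (filterByExpr with minimum count 10 and minimum total 15, leaving 18897 genes; TMM scaling; robust quasi-likelihood fit with 1 mean per group over all 12 libraries). All 49 genes passed the filter. Tests were two-sided, p-values were Benjamini-Hochberg adjusted over all genes of each of 7 contrasts, with calls made at an adjusted p under 0.05. Each ± on a log2 fold change is an SE derived from the F statistic. The test was checked on simulated counts. Medians and counts over gene lists are descriptions without a test. Replicate libraries differed by more than sampling noise in every group. The 7 contrasts share libraries and are not independent. Total counts of 61626404 to 64537365 bear on precision only through the spread between libraries, which the tests use.

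The 49 genes, their roles, the further lists and the markers were chosen with earlier results of these data known. By rule, values in each library are given for the 12 genes with the smallest p in the average sorafenib comparison and for the most abundant gene of each role by FPKM, and from each further list up to 4 called genes with the smallest p are named, plus Ccnd1, Ccnd2, Cdkn1a and Cdkn1c. Mcm4 and the other genes named were described after their values were seen. Promoter sequences are from RefSeq on GRCm38.p6, the patched form of the build the files use; 6 genes (Aurkb, Tpx2, Foxm1, Kif20a, Mcm4 and Ccna2) are not included, and 3 genes have more than 1 entry. Alternatives were no filter or 1 CPM in 3 libraries, DESeq2 1.42.0 (size factors, and its Wald test), limma 3.58.1 on log2(FPKM + 0.5) and log2(FPKM + 0.1), counts divided by 4, a fit of only the groups compared, a block for the replicate number and leaving out each library in turn.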

Additional observations from a re-analysis of the deposited data

How the results depend on the processing

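The average sorafenib comparison was the steadiest: 36 to 41 of the 49 genes were called when each library was left out in turn and 39 to 42 in the other settings, and 35 of the 38 genes that fell were called lower in every alternative. In the same sense 17 of 38 held for both agents against control, 10 of 25 for both agents against plx3397 and 0 of 14 for sorafenib against control. For sorafenib against control, the 14 calls became 26 with the Wald test of DESeq2 and 6 with the replicate number as a block, and 0 to 21 when single libraries were left out. Over all genes, its 500 calls became 1739 with DESeq2, 912 with counts divided by 4, 854 with limma on log2(FPKM + 0.5), 772 with the filter of 1 CPM, 221 with the block, 27 without sorafenib replicate 1 and 1422 without control replicate 1. The 611 calls of both agents against plx3397 became 1207 with DESeq2 and 177 without replicate 1 of both agents, and the 3046 against control became 1261 without control replicate 3. The 2257 on average became 1394 without replicate 1 of both agents. The other ranges without single libraries were 10 to 27 for both agents against plx3397 and 20 to 40 for both agents against control, and 0 for the remaining contrasts. The cause was not tested. No call changed direction. The median log2 fold change, however, was smaller with limma on log2(FPKM + 0.5): -0.50 for sorafenib against control, -0.56 for both agents against plx3397, -0.59 for both agents against control and -0.51 on average. With 0.1 FPKM added, both agents against control gave -1.19. A pseudocount above most members' FPKM shrinks their fold changes by construction. With 0.1 FPKM the median of all genes moved to -0.12 for sorafenib against control and -0.11 on average. Leaving out single libraries gave medians of -1.51 to -1.10 for both agents against plx3397, -1.58 to -1.23 against control, -1.33 to -1.10 on average, -0.43 to -0.11 for adding plx3397 to sorafenib, -0.24 to 0.07 for plx3397 alone and -0.42 to -0.07 for the interaction. The interaction of Cenpf, 0.16, ran from 0.00 (just below 0, without control replicate 1) to 0.29.

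Libraries of the same replicate number did not deviate together (correlations -0.10 to 0.06), and only 1 of the 12 libraries correlated best with its own number. No pairing by number was thus seen in these values. Whether libraries of the same number were handled together is not stated in the labels, and the correlations cannot show it. With the replicate block, 25 of the 49 genes were called for both agents against plx3397, 37 for both agents against control and 42 on average. For the average and the interaction, a fit of only the groups compared is the same fit. Limits are the 3 libraries per group, members mostly under 1 FPKM, and estimated counts of unknown unit; Melk and Ttk had the largest errors of the kinases.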
